A study of Mus musculus with 4 samples.

Results

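The Slit ligands, Robo receptors and the Srgap proteins downstream of the receptors were examined in mouse embryonic stem cell cultures differentiated toward motor neurons. Markers of other cell types, such as endoderm and mesoderm, were also listed in these cultures, so the values are not those of motor neurons alone. A rule based on gene symbols named 9 genes, and 7 of them have a row under their symbol in the deposited table of 11747 rows: Slit1, Slit2, Slit3, Robo1, Robo2, Srgap2 and Srgap3. Srgap1 has a row without a symbol, which was matched by its RefSeq accessions and is given beside the 7. No row was found for Robo3, and since the rows that are listed all reach about 101 reads or more in some library, Robo3 cannot be called absent from the cells.

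RNA was sequenced from 4 libraries of cells that derive from the A172LoxP embryonic stem cell line and carry a transgene for a transcription factor that is switched on by doxycycline, an antibiotic. All cultures, those without doxycycline included, carried the transgene and were grown as embryoid bodies, floating cell aggregates, with 0.5 µM retinoic acid and 1 µM purmorphamine, a Sonic hedgehog agonist, for 2 days. They were then kept for another 2 to 3 days with vehicle (libraries 1 and 7) or with 2 µg/mL doxycycline (libraries 2 and 8). The library numbers are those of the table's columns, and the labels do not state whether a group's libraries stem from independent cultures. A p-value here therefore measures the spread of these 4 libraries, and part or all of that spread may be technical.

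Slit proteins are large secreted ligands that repel growing axons and migrating neurons. They bind Robo receptors of the immunoglobulin superfamily on the growth cone, and the Srgap proteins, which bind the cytoplasmic part of Robo receptors, act on the cytoskeleton and on membrane shape. In the ventral spinal cord the floor plate and motor neurons make Slit proteins, which keep axons that have crossed the midline from crossing again and keep motor neuron cell bodies and axons out of the floor plate.

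Slit2 and Slit3 were the members that changed with doxycycline, and both fell. Slit2 was 2.43-fold and Slit3 1.97-fold lower with doxycycline. Neither the remaining ligand nor the listed receptors and Srgap genes passed the test, and Slit1 lay in the opposite direction to the other ligands. Of the 7 members 2 passed as lower, where 1.79% of all genes tested passed as lower, and none passed as higher, where 0.579% of all genes did. The test was limma's moderated test on log2(normalized count + 1) over all 11747 rows adjusted after Benjamini and Hochberg, at a threshold of 0.05. At an unadjusted p under 0.05 there were 4 members (Slit1, Slit2, Slit3 and Robo2), where 21.1% of all genes lay under that value. The median change of the 7 was 0.16 on the log2 scale and that of all genes 0.00236.

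The host genes that fell share an intronic microRNA. In GENCODE M21 on GRCm38 the hairpin of miR-218-1 lies in intron 14 of Slit2 and that of miR-218-2 in intron 14 of Slit3, each on the strand of its host. MiR-218 is a microRNA known for its high level in motor neurons. Neither hairpin gene has a row in the deposited table, so its level was not measured here. The mature sequences are shown because both loci give the same 5p arm, and the capitals mark the seed, bases 2 to 8. They come from RefSeq on GRCm38.p6, at chr5:48223966-48223986 (plus strand) and chr11:35616840-35616860 (plus strand) for the 5p arm, chr5:48224005-48224026 (plus strand) for the 3p arm of Slit2 and chr11:35616882-35616903 (plus strand) for that of Slit3.
mmu-miR-218-5p: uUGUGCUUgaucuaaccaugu
mmu-miR-218-1-3p: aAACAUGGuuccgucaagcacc
mmu-miR-218-2-3p: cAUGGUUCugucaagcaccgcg
The 5p arm has the seed UGUGCUU from either locus, while the 3p arms differ in their seeds.

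The start regions of the genes that fell together were also read. RefSeq windows of 300 bases, 250 before and 50 after a start site, were at hand for 8 of the 9 named genes, on GRCm38.p6, a build that differs from the mm9 of the deposited table. The Slit2 window is chr5:47982905-47983204 and the Slit3 window chr11:35121206-35121505, both on the plus strand. Capitals mark GGGCGG on either strand, the core of the GC box, and TATAAA, the TATA box.
Slit2: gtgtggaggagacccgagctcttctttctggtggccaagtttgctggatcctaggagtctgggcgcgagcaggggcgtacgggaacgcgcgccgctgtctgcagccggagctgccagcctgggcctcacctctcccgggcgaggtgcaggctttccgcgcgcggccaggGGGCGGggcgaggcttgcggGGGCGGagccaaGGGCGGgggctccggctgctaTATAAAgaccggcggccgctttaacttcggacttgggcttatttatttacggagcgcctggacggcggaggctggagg
Slit3: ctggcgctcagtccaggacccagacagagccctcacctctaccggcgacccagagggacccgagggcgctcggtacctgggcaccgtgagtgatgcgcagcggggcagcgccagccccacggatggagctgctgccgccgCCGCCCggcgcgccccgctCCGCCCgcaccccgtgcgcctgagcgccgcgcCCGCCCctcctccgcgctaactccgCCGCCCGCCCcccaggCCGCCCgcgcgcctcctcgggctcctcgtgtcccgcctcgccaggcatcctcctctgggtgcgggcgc
The Slit2 window holds 3 GGGCGG matches and the Slit3 window 6, of which 2 overlap each other, and 35.7% of all 32851 windows hold at least 1. Genes that were not called hold GGGCGG too (Srgap1 3, Srgap2 2, Srgap3 1), as does Robo3 (3), which has no row. The Robo1 and Robo2 windows hold none. The Slit2 window holds TATAAA, as do the Srgap3 window and 13.6% of all windows, and the Slit3 window does not. TAATTA, a core that many homeodomain proteins bind, is in neither window, but in that of Robo3 and in 5.29% of all windows. The G and C content was 68.0% for Slit2 and 78.3% for Slit3. In the windows of the other named genes it ran from 45.0% (Robo2) to 73.3% (Srgap1). These matches describe the letters only.

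Among the ligands Slit2, the family member most studied at the spinal midline, was listed at 15597 and 14975 normalized counts in libraries 1 and 7 without doxycycline and at 7352 and 5220.1 in libraries 2 and 8 with it. The lower of the libraries without doxycycline lay far above the higher of those with it. The means were 15286 ± 440.1 and 6286 ± 1507 (SD, n = 2), a log2 change of -1.30 ± 0.16 (SE; limma, adjusted p = 0.0242; 95% interval -1.69 to -0.92). The counts rest on an estimated 17453, 13947, 6236 and 5918 reads in libraries 1, 7, 2 and 8. Libraries 2 and 8 differed by 0.49 on the log2 scale and libraries 1 and 7 by 0.06. The call stood whichever library was left out. Without the intensity trend in limma's variance model neither Slit2 (adjusted p = 0.0687) nor Slit3 (adjusted p = 0.0862) passed.

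Slit3, a ligand with the same domain plan as Slit2, was at 7326 and 6396 normalized counts in libraries 1 and 7 and at 3935 and 3023 in libraries 2 and 8. The groups did not overlap, and library 8 was again the lowest. The change was -0.99 ± 0.14 (SE; limma, adjusted p = 0.0333; 95% interval -1.33 to -0.65), from a mean of 6861 ± 658 to 3479 ± 645 (SD, n = 2). Without library 8 the change was -0.80 and did not pass (limma, adjusted p = 0.0764), while Slit3 passed without any other single library.

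Slit1, the ligand best known from the forebrain and the visual system, had 897 and 1146 normalized counts in libraries 1 and 7, against 1311 and 1867 in libraries 2 and 8. Both libraries with doxycycline lay above both without it, and the groups are apart, either way, in 53.2% of all genes. The difference was 0.63 ± 0.20 on the log2 scale (SE, n = 2 per group; limma, adjusted p = 0.156), so it did not pass over all genes, and its interval before adjustment ran from 0.14 to 1.11. Without library 8 the difference was 0.37 and without library 2 it was 0.88. Slit1 was higher in library 7 than in library 1 and higher in library 8 than in library 2. The opposite held for Slit2 and Slit3 in both groups.

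**Figure D1:**
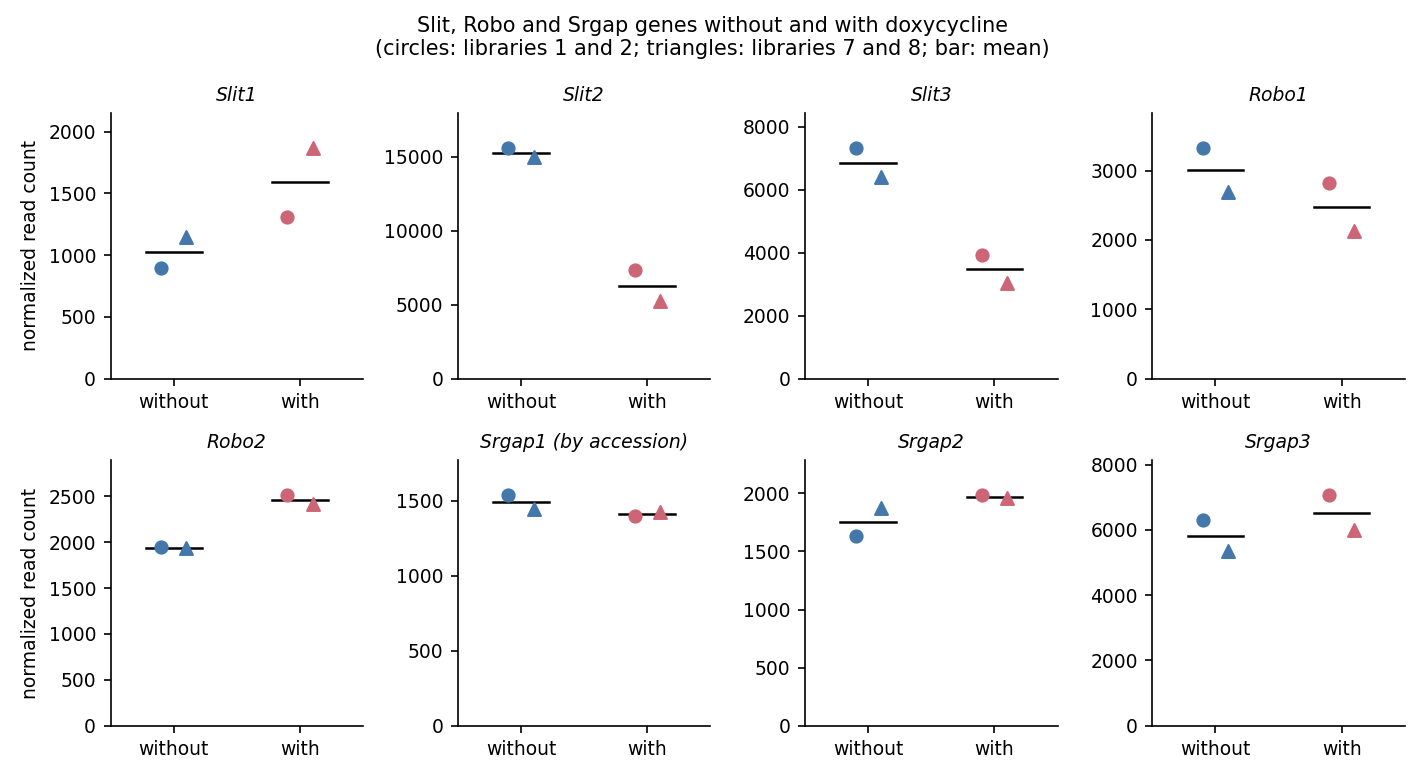
Normalized read counts of 8 genes in each library, without (blue) and with (red) doxycycline; points are single libraries, bars are group means, and each panel has its own axis from 0. Slit2 falls from a mean of 15286 to 6286 and Slit3 from 6861 to 3479, while the libraries of Robo1 and of Srgap3 overlap between groups.

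Ratios of the ligands within a library, which do not depend on how libraries are scaled to each other, were compared as well. The ratio of Slit1 to Slit2 normalized counts was 0.0575 and 0.0765 in libraries 1 and 7, against 0.178 and 0.358 in libraries 2 and 8, a 3.81-fold difference between the groups' geometric means. The groups did not overlap, and the difference of 1.93 on the log2 scale was larger than the widest gap within a group, 1.00. The ratio of Slit2 to Slit3 was 2.13 and 2.34 without and 1.87 and 1.73 with doxycycline, 1.24-fold lower, so the values of Slit2 fell somewhat further than those of Slit3 in these libraries. Both ratios gave p = 0.333 in an exact two-sided permutation test, the smallest value possible with 2 libraries per group. The ratios here and below restate the values of single genes. How often groups are apart over all pairs of genes was not counted.

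Per length the summed Slit transcript level was lower with doxycycline, and its makeup differed. Divided by the coding length of the GENCODE M21 transcript that carries each row's accession, the sum was 5217 and 4931 normalized counts per kb in libraries 1 and 7, against 2758 and 2212 in libraries 2 and 8. On this scale Slit1 made up 3.74% and 5.06% of the sum without doxycycline and 10.3% and 18.4% with it. Slit2 made up 65.5% and 66.6% without and 58.4% and 51.7% with doxycycline, and the share of Slit3 lay between 28.4% and 31.2% in all 4 libraries. Divided by the whole transcript length the sum was 3145 and 2954 without and 1751 and 1472 with doxycycline. Slit1 was the lowest of the 3 ligands per length in every library on both scales. The order of Slit2 and Slit3 was not fixed: with doxycycline Slit2 was above Slit3 per coding length (1378 against 761) and below it per transcript length (631 against 665). Neither length is known to be the right one, because the sources used here do not state which parts of a transcript were counted.

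**Figure D2:**
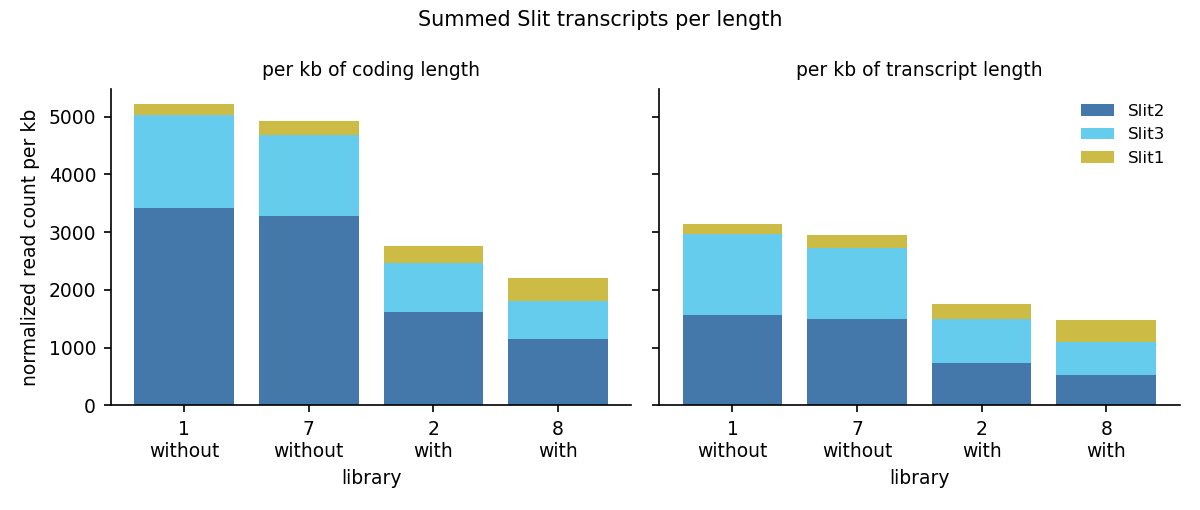
Stacked bars of normalized read counts per kb for Slit2, Slit3 and Slit1 in each library, divided by coding length (left) or transcript length (right). The sum per kb of coding length is 5217 and 4931 in the libraries without and 2758 and 2212 in those with doxycycline, and the Slit1 layer is thicker with doxycycline.

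Neither listed receptor passed the test. Robo1, a receptor that binds all 3 Slit proteins, had 3326 and 2691 normalized counts in libraries 1 and 7, against 2813 and 2127 in libraries 2 and 8. The groups overlapped, since library 2 lay above library 7, and the difference was -0.29 ± 0.16 (SE, n = 2 per group; limma, adjusted p = 0.365; 95% interval -0.69 to 0.11). It was -0.09 without library 8, -0.14 without library 1, -0.44 without library 7 and -0.49 without library 2. Robo2, which acts beside Robo1 in repelling axons, had 1945 and 1936 in libraries 1 and 7, against 2515 and 2412 in libraries 2 and 8. The libraries of each group lay close together and the groups did not overlap. The difference was 0.34 ± 0.07 (SE, n = 2 per group; limma, adjusted p = 0.0669; 95% interval 0.18 to 0.51), which stays above the threshold over all genes.

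The ratio of Robo1 to Robo2 was 1.71 and 1.39 in libraries 1 and 7, against 1.12 and 0.882 in libraries 2 and 8. The groups did not overlap, with a difference of -0.63 on the log2 scale against a widest gap within a group of 0.34 (exact permutation test, two-sided, p = 0.333, the smallest possible). Per kb of coding length the sum of Robo1 and Robo2 was 1118 and 984 without and 1138 and 973 with doxycycline, so their summed level overlapped between groups. The summed ligands relative to these receptors were 4.67 and 5.01 without and 2.42 and 2.27 with doxycycline on that scale. Robo3, the divergent receptor of commissural neurons before they cross the midline, was not among the rows, and neither were 8 more of the 11 commissural interneuron markers. Of the 2 that were listed, Dcc, a netrin receptor, had a difference of 0.00107 ± 0.23 and Cntn2, an adhesion molecule that motor neurons express as well, one of -0.97 ± 0.21 (SE; limma, adjusted p = 0.998 and 0.0799).

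**Figure D3:**
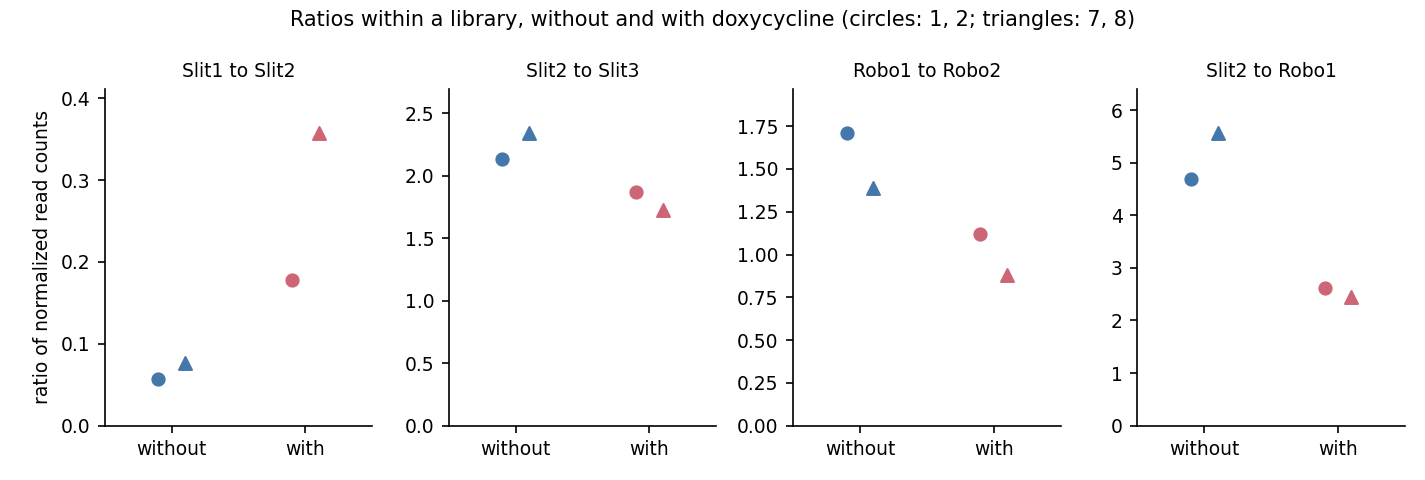
Ratios of normalized read counts of pairs of genes within each library, without (blue) and with (red) doxycycline; each axis starts at 0. The groups do not overlap in the 4 pairs drawn, with Robo1 to Robo2 at 1.71 and 1.39 without and 1.12 and 0.882 with doxycycline. Single genes are apart, either way, in 53.2% of all genes, and the share over pairs of genes was not counted. The ratio of Srgap2 to Srgap3, which overlaps between groups, is not drawn.

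The Srgap genes did not pass either, and the ratio of Srgap2 to Srgap3 overlapped between groups (0.259 and 0.350 without, 0.281 and 0.327 with doxycycline; exact permutation test, two-sided, p = 1). Srgap2, which shapes neuronal branches and spines, was at 1629 and 1878 normalized counts in libraries 1 and 7 and at 1987 and 1957 in libraries 2 and 8. These groups are apart by less than the gap between libraries 1 and 7, and the difference was 0.17 ± 0.09 (SE, n = 2 per group; limma, adjusted p = 0.337; 95% interval -0.05 to 0.40). Srgap3, a member linked to neuronal outgrowth, was at 6292 and 5359 without and 7071 and 5990.2 with doxycycline. Its groups overlapped, and the difference was 0.16 ± 0.11 (SE, n = 2 per group; limma, adjusted p = 0.462; 95% interval -0.11 to 0.44). Srgap1, the row matched by accession, was at 1538 and 1445 without and 1395 and 1422 with doxycycline. That is a difference of -0.08 ± 0.08 (SE, n = 2 per group; limma, adjusted p = 0.586), and its 95% interval, -0.27 to 0.10, leaves out changes of the size seen for Slit2 or Slit3. Per kb of coding length Srgap3 was above Srgap2 and Srgap1 in both groups (1767 against 546 and 458 without doxycycline), and it was so per transcript length too (656 against 218 and 192).

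**Figure D4:**
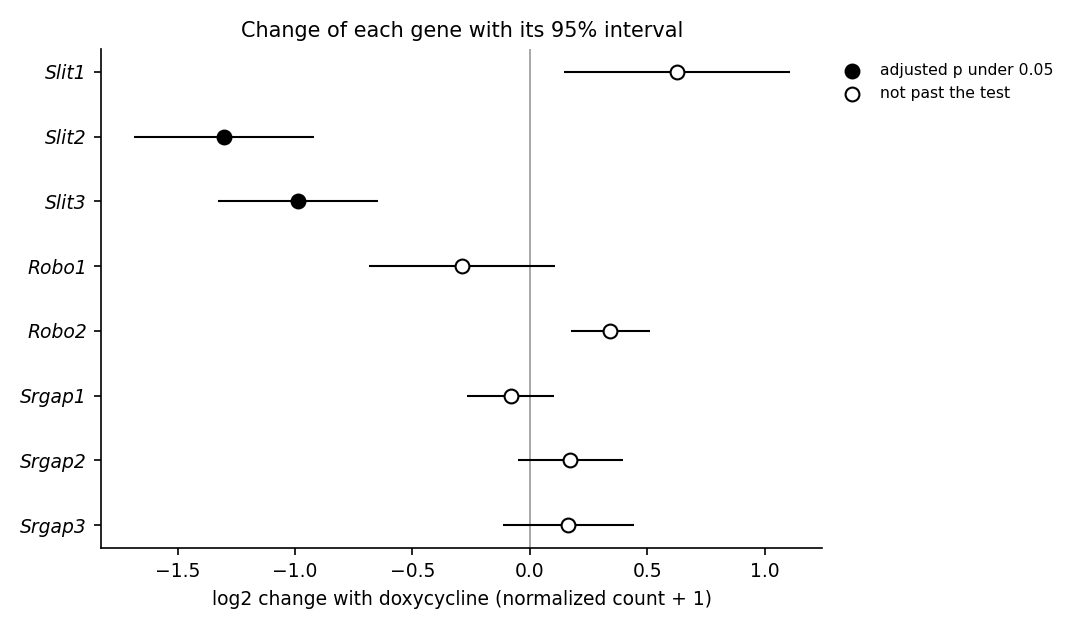
Log2 change with doxycycline of the 7 members and of Srgap1, with 95% intervals from limma before adjustment; filled points passed the test over all genes. Slit2 (-1.30) and Slit3 (-0.99) are filled, and the intervals of Slit1 and Robo2 lie above 0 without an adjusted p under 0.05.

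Genes of the wider pathway were taken from 4 lists and, members aside, 92 of their 103 genes had rows. Of these 1 passed as higher and 5 as lower, which is 6.52%, where 2.37% of all genes passed in either direction, and the median change of the 92 was -0.05. The 6 were the splicing regulator gene Nova2 and 5 transcription factor genes. Of the latter Isl1, Isl2, Lhx4 and Mnx1 are also among the motor neuron markers counted below. The share thus rests mainly on the transcription factor list, and the other pathway lists gave only the Nova2 call. Among co-receptors and other binding partners none of 27 listed genes passed (limma), with 13 values above 0, a median of -0.00385, and 2 higher and 7 lower at an unadjusted p under 0.05. Without library 7 the netrin gene Ntn1 passed as higher and Nell2 and Cntn2 as lower, and Cntn2 also passed without library 2. The smallest p-values there were those of the chemokine gene Cxcl12 (-0.58 ± 0.10), of Nell2, which encodes a secreted ligand of Robo3 (-0.83 ± 0.15), and of Cntn2 (limma, adjusted p = 0.0541, 0.0545 and 0.0799). None of 32 listed cytoplasmic effectors passed (limma), with 11 values above 0, a median of -0.04, and 1 higher and 5 lower at an unadjusted p under 0.05. There Evl, of the Ena/VASP family of actin regulators, had a difference of -0.32 ± 0.06, the microtubule binding protein gene Clasp1 one of -0.37 ± 0.08 and the exchange factor gene Trio one of -0.38 ± 0.09 (limma, adjusted p = 0.0572, 0.0698 and 0.09). Of 16 trafficking, cleavage and splicing genes Nova2, a neuronal splicing regulator that acts on axon guidance transcripts, fell by 0.55 ± 0.09 (limma, adjusted p = 0.0455), a call that was lost without library 1, 2 or 8, with quantile normalization (adjusted p = 0.0505) and without the intensity trend (adjusted p = 0.104). That list had a median of -0.09, and its next smallest p-values were those of Ndfip1, an adaptor of ubiquitin ligases (-0.28 ± 0.06), and the ligase gene Nedd4l (-0.36 ± 0.09; limma, adjusted p = 0.083 and 0.106).

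Transcription factors that have been tied to Slit or Robo genes moved in both directions. Of 17 listed, 4 fell and 1 rose, with a median of -0.05. Isl1, which is needed for motor neurons to form, had 2331 and 2183 normalized counts in libraries 1 and 7, against 739 and 437 in libraries 2 and 8, a fall of 1.99 ± 0.24 on the log2 scale (limma, adjusted p = 0.0241). Its relative Isl2 (-2.60 ± 0.27) and the motor neuron factor gene Mnx1 (-2.21 ± 0.16) fell as well (limma, adjusted p = 0.0205 and 0.00855), and each of these 3 calls stood whichever library was left out. That of Isl1 was lost without the intensity trend (limma, adjusted p = 0.0676) and with robust empirical Bayes (limma, adjusted p = 0.0525). Lhx4, a LIM-homeodomain factor, fell by 0.92 ± 0.15 (limma, adjusted p = 0.0455), a call lost without library 1 or 8, with quantile normalization (adjusted p = 0.0544) and without the intensity trend (adjusted p = 0.0829). Nkx2-2, a factor of the most ventral progenitors, rose by 2.78 ± 0.34 (limma, adjusted p = 0.0251; lost without library 8 and without the intensity trend, adjusted p = 0.0636). Nkx2-9, which is known to act on Robo2 in spinal accessory motor neurons, missed the threshold with a difference of 2.04 ± 0.48 (limma, adjusted p = 0.0924). Both genes start from low counts, where the lowest row mean was 40.1. Nkx2-2 had 52.7 and 92.3 normalized counts in libraries 1 and 7, against 383 and 613 in libraries 2 and 8. Nkx2-9 had 23.2 and 30.1, against 71.9 and 172.9.

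Motor neuron and pan-neuronal markers fell beside Slit2 and Slit3, while floor plate and progenitor markers had no call and mostly lay above 0. In bulk RNA fewer cells of a type and less RNA per cell cannot be told apart. Of 10 listed motor neuron markers 8 fell and 2 had values above 0, with a median change of -1.54 and summed counts of 17573 and 17108 in libraries 1 and 7 against 9270.1 and 8680 in libraries 2 and 8. Those 2 were Lhx3, a factor shared by motor neurons and V2 interneurons (0.55 ± 0.17), and the progenitor factor gene Olig2 (0.19 ± 0.09; limma, adjusted p = 0.155 and 0.311), and 1 motor neuron marker was called higher without library 1. Slc5a7, the choline transporter gene, had no row. Without the intensity trend 6 motor neuron markers fell, and 6 did without library 8. Of 15 listed pan-neuronal markers 12 fell, with a median of -0.86 and sums of 174673 and 155155 without and 85788 and 69102 with doxycycline, but only 4 passed without the intensity trend and 6 without library 8. The falls of Slit2 and Slit3 lie in the range of both lists, and the part of cell numbers in them was not tested. The 7 listed floor plate markers had no call (limma; 3 higher at an unadjusted p under 0.05, and Ntn1 and Spon1 called without library 7) and a median of 0.68, with sums of 4849 and 7143 without and 7377 and 9848 with doxycycline. Among them Ntn1, the netrin gene of the floor plate, had 2153 and 3245 normalized counts without and 3599 and 4950.2 with doxycycline (limma, adjusted p = 0.178). Ntn1 was the largest part of the sum in every library. Spon1, Shh and Nkx2-9 also lay apart and higher, with Shh and Nkx2-9 at low counts (means of 44.36 and 26.65 without doxycycline). Foxa2 and Sulf1 overlapped between groups, as did Foxa1, which had a change of -0.24. Whether floor plate cells became more numerous was not tested. None of 11 neural progenitor markers passed (limma; 6 higher at an unadjusted p under 0.05, and 1 called without library 1, 2 or 7), with 10 values above 0, a median of 0.43 and sums of 39602 and 40929 against 41589 and 47156.

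In sum the endoderm and mesoderm markers differed more between the libraries of a group than between the groups. Col4a1, Lama1 and Lamb1 made up most of that sum. Of the listed markers only Col1a1 and Twist1 did not overlap between groups. The sum of 12 listed endoderm and mesoderm markers was 249344 and 486397 in libraries 1 and 7, against 186738 and 442656 in libraries 2 and 8, with no call (limma; 1 at an unadjusted p under 0.05) and a median of -0.24. Library 7 was thus above library 1 and library 8 above library 2, as for Slit1. The sum was lower in library 2 than in library 1 and in library 8 than in library 7, unlike Slit1. The sums of the floor plate and of the neural progenitor markers increased in the order of libraries 1, 7, 2 and 8, as Slit1 did. The part of any of these cells in the values of Slit1 was not tested. The sums of the endothelial and of the pluripotency markers did not overlap between groups and were lower with doxycycline. Single genes are apart, either way, in 53.2% of all genes, and each listed pluripotency marker by itself overlapped between groups. Of 9 endothelial markers 3 had rows, with sums of 792 and 890.1 without and 490.4 and 640.4 with doxycycline and no call (limma; 2 lower at an unadjusted p under 0.05). Without the intensity trend 1 of these was called lower. Robo4, the endothelial receptor of the family, had no row. The 7 listed pluripotency markers had no call either (limma; 0 at an unadjusted p under 0.05), a median of -0.26 and sums of 3576 and 3222 against 2992 and 2944.

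**Figure D5:**
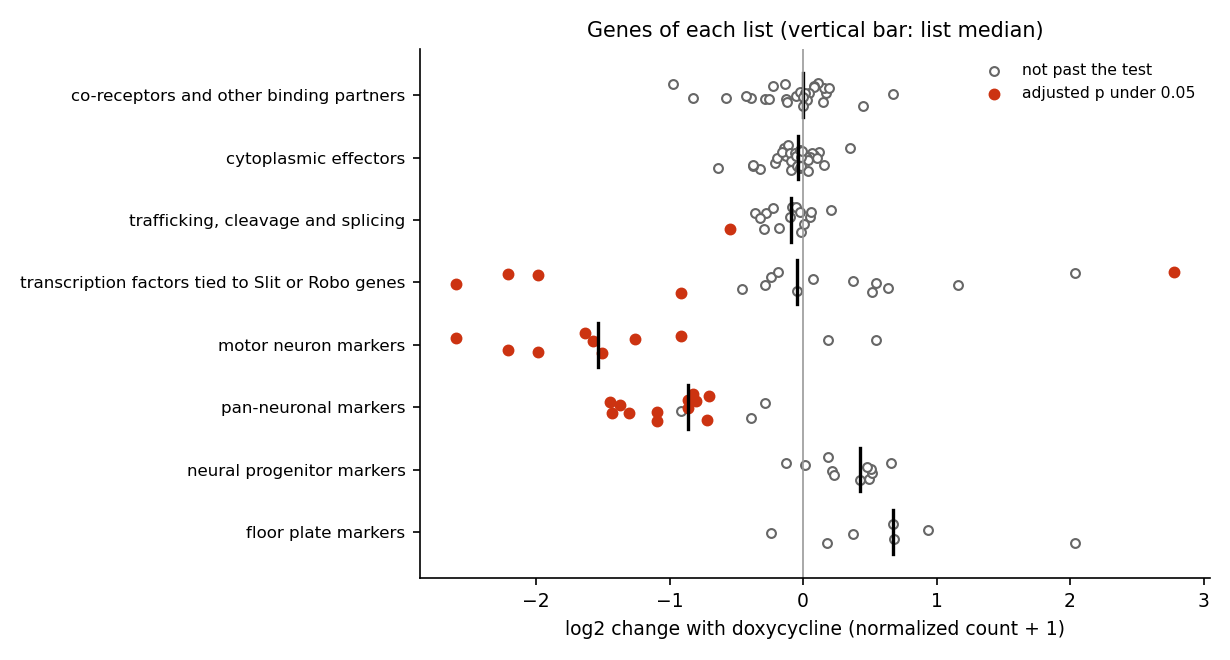
Log2 change with doxycycline of each gene of 4 pathway lists and 4 marker lists; red points passed the test over all genes, open points did not, and vertical bars are list medians. Motor neuron and pan-neuronal markers lie mostly below 0 (medians -1.54 and -0.86), and the co-receptors and effectors lie around 0.

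Genes whose 4 values ran most like those of Slit2 were found by the Euclidean distance between log2 profiles centred on each gene's mean. The nearest were Mfap3l (distance 0.0501, change -1.26), Ppfia2, which encodes a liprin of presynaptic sites (0.0712, -1.24), and Ebf2, a transcription factor gene of developing neurons (0.0888, -1.23). For Slit3 they were the glutamate receptor gene Grm2 (0.0655, -1.02), Fam70a (0.0759, -0.93) and Enox1 (0.0869, -0.99). Ppfia2 and Fam70a did not pass the test (limma, adjusted p = 0.0671 and 0.0938), while the others named here did. Slit3 itself was the 40th nearest gene to Slit2, at 0.338, and Slit2 the 133rd nearest to Slit3. With 4 libraries in 2 groups such a distance mainly reflects the group difference and the gap between libraries of a group.

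The 4 libraries had normalized counts that sum to between 26449555 and 27047458, from an estimated 22434755 to 30235763 reads. The members rested on an estimated 1004 reads (Slit1, library 1) to 17453 reads (Slit2, library 1) per library.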

How the data were processed

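Total RNA was sequenced on an Illumina HiSeq instrument in 4 libraries, per the labels' protocols. CASAVA, TopHat2, HTSeq, DESeq and the build mm9 are named, without versions or roles, per the submitters' processing notes. The deposited table holds 1 signal per gene, which the authors obtained, as far as the values show, from gene counts and a size factor for each library. The value of 1 read was estimated from the spacing of the values (0.894, 1.07, 1.18 and 0.882 in libraries 1, 7, 2 and 8), and read numbers are estimates. In each library 100% of the values lay within 0.1 of a whole number of estimated reads. The estimated reads were still not used in a count model, because a check of units did not accept them as counts. Column names gave each library its group but not its replicate number in the labels. A symbol came from the table for 11335 rows and by accession from RefSeq (GRCm38.p6) for 375. The sources used here do not state whether counting used strand, so reads of a gene and of an antisense partner may be mixed.

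Values were analysed as log2(normalized count + 1), a scale that understates changes of low genes. All rows passed the filter, a mean of 10 or more (lowest mean 40.1). The groups were compared with limma 3.58.1 in R 4.3.3 (moderated tests, intensity trend, two-sided, 2 residual and 3.83 prior degrees of freedom), which was tested on simulated data. The simulation gave every gene the same dispersion and made the libraries independent. It therefore checks the code and not how the test performs on the spread of these libraries. Intervals of changes are at the 95% level and before adjustment. Alternatives were other pseudocounts (0.5 and 5) and filters (none, and a mean of 50 or more), TMM and quantile scaling, no trend, robust empirical Bayes, neighbouring column numbers as a block and each library left out. The members and lists were chosen with earlier results of these data known. The text names all members, pathway genes past the test, the 3 with the smallest p of each pathway list, and the 3 nearest profiles; other marker genes were chosen after their values were seen. Python 3.11.15, pandas 2.3.3, numpy 2.4.6, scipy 1.17.1 and matplotlib 3.10.9 were used.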

Additional observations from a re-analysis of the deposited data

How the results depend on the processing

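Pseudocounts, filters, TMM and quantile scaling left the calls of Slit2 and Slit3 and the direction of the 7 members and Srgap1 as they were. Without the intensity trend 105 genes, 2 pathway genes and 0 members passed, with Slit2 at -1.30 (limma, adjusted p = 0.0687) and Slit3 at -0.99 (limma, adjusted p = 0.0862). Robust empirical Bayes gave 419 genes. Leaving out 1 library gave 44 (without library 8) to 494 genes (without library 7), 1 to 2 members and 3 to 11 pathway genes, with changes of -1.55 to -1.06 for Slit2 and -1.18 to -0.80 for Slit3. The adjusted p of Slit3 ran from 0.00889 to 0.0764 there, and no member changed direction. Those fits gave 0.07 to 0.28 for Srgap2, 0.04 to 0.28 for Srgap3, -0.13 to -0.04 for Srgap1 and 0.31 to 0.37 for Robo2. The cause of these shifts was not tested. A replicate block that joins library 1 with 2 and 7 with 8 called 3508 genes, 43 pathway genes and all 7 members. That fit has 1 residual degree of freedom and infinite prior degrees of freedom, so it treats all genes of 1 level as equally variable, and the labels do not say that column numbers mark pairs. Over genes the difference of library 1 from 7 correlated with that of 2 from 8 (r = 0.63, 11747 genes, which are not independent). The planned edgeR fit was not run, because a check of units did not accept the estimated reads as counts. With 2 libraries per group, differences as small as those of the Srgap genes are not resolved.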
